A study of Homo sapiens with 17 samples.

Results

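ND1, ND2 and ND3, which encode subunits of respiratory complex I, were examined in RNA captured by the J2 antibody from human lung cancer cells. The members were taken by name, as 3 of the 37 genes and 3 of the 13 coding genes of the mitochondrial annotation. J2 binds double-stranded RNA. The captured RNA was polyadenylated in vitro, converted to PCR-cDNA and sequenced as long nanopore reads, in 17 libraries. Experiment 1 held untreated H1437, H23 and PC9 cells, 3 libraries per line. Experiment 2 held 1 library of each line with IMT1, an inhibitor of mitochondrial transcription, and 1 library of each line without it. Experiment 3 held 1 H23 library with ADAR1 knockdown (ADAR1 KD) and 1 H23 library without it. The study describes the knockdown as made with small interfering RNA (siRNA) and compared with cells given a nontargeting siRNA. ADAR1 is an enzyme that edits adenosine to inosine in double-stranded RNA. All 3 lines are established lines of human lung adenocarcinoma. Labels do not call the partner libraries of experiments 2 and 3 controls. Their titles number them as further replicates of the untreated lines. They were taken as controls from the names of their alignments. The division into experiments 1, 2 and 3 is not in the labels either and was taken from the same names. The dose and duration of IMT1 are not given in the sources used here. The files hold mitochondrial rows only, so neither the identity of the lines nor the level of ADAR1 RNA could be checked.

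Complex I is the first enzyme of the respiratory chain. It passes electrons from NADH to ubiquinone and pumps protons across the inner mitochondrial membrane. Mitochondrial DNA is transcribed in both directions into long RNAs that hold many genes. tRNAs lie between most of these genes, and excision of the tRNAs frees the mRNAs and rRNAs. RNA of the opposite strand is normally degraded quickly, and where it persists it can pair with the mRNAs as mitochondrial double-stranded RNA. ND1 is a core membrane subunit beside the ubiquinone pocket. ND2 is one of the antiporter-like subunits of the proton-pumping membrane arm. ND3 is a small subunit at the junction of the membrane arm and the matrix arm.

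In the annotation of the mitochondrial genome (NC_012920.1), ND1 lies at MT:3307-4262 (956 bases), ND2 at MT:4470-5511 (1042 bases) and ND3 at MT:10059-10404 (346 bases). All 3 genes are on the plus strand, have no introns, and have a gene row and a coding sequence (CDS) row of the same interval. ND1 follows RNR2, the gene of the large mitochondrial rRNA, with the leucine tRNA gene TRNL1 between them, and is followed by the isoleucine tRNA gene TRNI. ND2 lies between the methionine tRNA gene TRNM and the tryptophan tRNA gene TRNW. ND3 lies between the glycine tRNA gene TRNG and the arginine tRNA gene TRNR.

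Total reads ran from 37113 in the ADAR1 KD library to 6295486 in H1437 replicate 1, with a median of 547501. The mapped share ran from 1.14% to 47.2%. H1437 replicate 1 and PC9 replicate 1 stood apart, with 18 and 20 tRNA gene rows at 0 counts. ADAR1 KD followed with 11 such rows, and the other libraries had 3 or fewer. Gene-row counts ran from 12 to 1695 for ND1, from 9 to 1432 for ND2 and from 4 to 384 for ND3, so that ND3 had the least precise values. Values are given as RPM, the reads per 1000000 total reads of a library, or as RPM per kb where genes are compared.

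**Figure D1:**
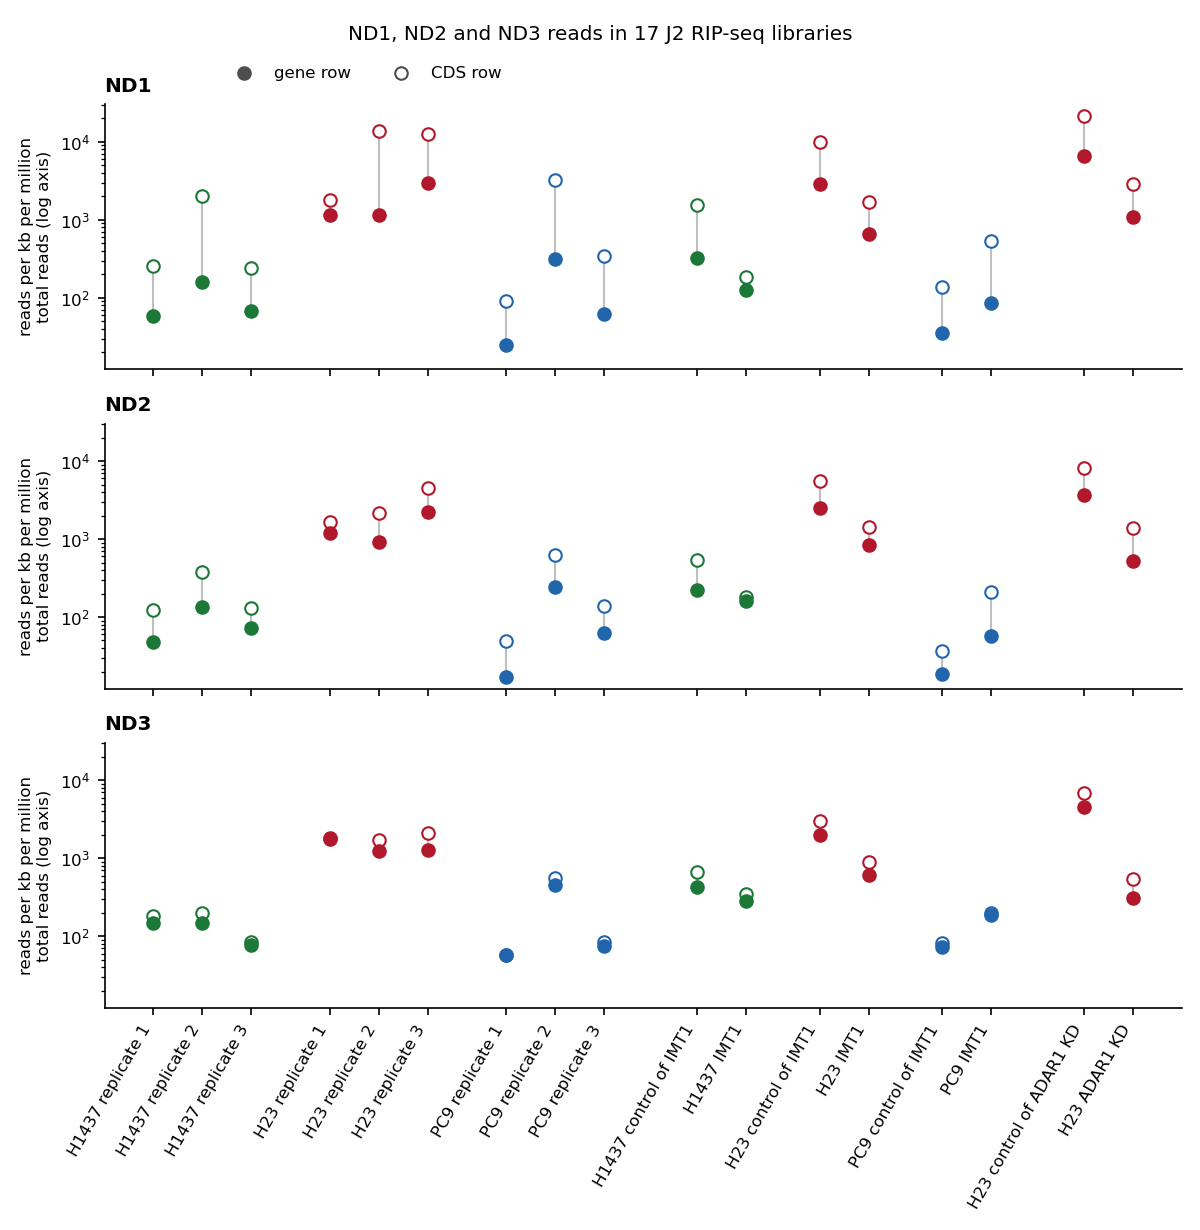
RPM per kb of ND1, ND2 and ND3 (reads per kb and 1000000 total reads) on a log axis in each of the 17 libraries, as counted on the gene row (filled) and on the CDS row (open), with H1437 in green, H23 in red and PC9 in blue. The H23 gene-row points of experiment 1 lie above the H1437 and PC9 points for all 3 genes, and over the 17 libraries together 78.7% of the ND1 CDS-row reads are not on the gene row, against 53.6% for ND2 and 28.9% for ND3.

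On the gene row, though not on the CDS row, ND1 was higher in every untreated H23 library than in any untreated library of the other lines. ND1 gene-row RPM were 1104, 1105 and 2860 in H23 replicates 1, 2 and 3. They were 55.4, 152 and 64.9 in H1437 and 23.9, 296 and 59.5 in PC9. The H23 values did not overlap those of H1437 or PC9, whereas the H1437 and PC9 values overlapped. A library of captured RNA does not tell more double-stranded RNA per cell from more captured cells, nor the RNA of one strand from that of the other. The H23 mean of 1690 ± 1014 was 18.6-fold over the H1437 mean of 90.7 ± 53.1 and 13.4-fold over the PC9 mean of 126 ± 148 (SD, n = 3 each).

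ND2 showed the same order of lines. ND2 RPM were 1243, 947 and 2337 in H23, 49.4, 140 and 75.2 in H1437, and 18.0, 256 and 65.0 in PC9. The means were 1509 ± 732, 88.3 ± 46.9 and 113 ± 126 (SD, n = 3 each), which is 17.1-fold over H1437 and 13.4-fold over PC9. In both genes PC9 replicate 2 was the highest library outside H23, and PC9 replicate 1 the lowest.

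ND3, the shortest of the 3 genes, also did not overlap. ND3 RPM were 613, 434 and 446 in H23, 50.5, 51.2 and 26.6 in H1437, and 20.0, 159 and 26.3 in PC9. The H23 mean of 498 ± 100 was 11.6-fold over the 42.8 ± 14.0 of H1437 and 7.28-fold over the 68.4 ± 78.5 of PC9 (SD, n = 3 each). The spread of ND3 among the H23 libraries was 20.2% of its mean, less than the 48.5% of ND2 and less than that of ND1.

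By a two-sided exact permutation test of the F statistic over the 3 lines, P was 0.0321 for ND1, 0.0321 for ND2 and 0.0357 for ND3. The smallest P this test can give is 0.00357. After Benjamini-Hochberg adjustment over the 35 genes tested, the exact test gave 0.0893 for each of the 3 genes and called none of the 35 (0.0%). Unadjusted P was under 0.05 for 42.9% of all genes tested, and 40.0% of them had every H23 library above every other library, so that the 3 members shared this order with 11 other genes. The median fold of all 35 genes was 3.95 over H1437 and 5.61 over PC9. It was 10.9 and 8.97 for the 4 other complex I genes (ND4, ND4L, ND5 and ND6), 2 of which had all H23 libraries highest. Among the 5 other coding genes that could be tested, all 5 did, with median folds of 12.5 and 10.4. Each pair of lines with H23 gave P = 0.10 by exact permutation for each member, the smallest value that 3 against 3 allows, and H1437 against PC9 gave P = 0.90, 0.90 and 1.0 for ND1, ND2 and ND3. These permutation tests did not use the pairing of same-numbered H1437 and PC9 libraries, which is described with the processing.

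Replicate 1 of H1437 and of PC9 stood apart in its tRNA rows. Without replicate 1 of every line, the H23 mean stayed above the mean of the other lines, by 3.79, 3.62 and 2.74 on the log2 scale for ND1, ND2 and ND3 (exact permutation P = 0.20 for each with 2 libraries per line), against 3.96, 3.91 and 3.16 with all 9. The edgeR log2 fold changes of H23 against H1437 were then 2.71, 2.43 and 2.11, with an adjusted P of 0.135 for each.

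H23 was also the highest line among the controls of the other experiments, whereas H1437 lay above PC9 there and below it in the untreated means. ND1 was at 2764 RPM in the H23 control of IMT1, 311 in that of H1437 and 34.1 in that of PC9. The H23 control of ADAR1 KD had 6240, the highest ND1 value of all 17 libraries. ND2 was at 2596, 235 and 19.3 in the H23, H1437 and PC9 controls of IMT1 and at 3834 in the H23 control of ADAR1 KD. ND3 was at 696, 148 and 25.2 in the IMT1 controls and at 1560 in the ADAR1 KD control. Over all 13 untreated and control libraries, each H23 library was above each library of the other lines for all 3 genes, and adjusted P by the exact permutation test over 36 genes was 0.0167 for ND1, 0.0167 for ND2 and 0.0165 for ND3. The test called 16 of the 36 genes (44.4%), and all H23 libraries lay above the rest for 13 of the 36 (36.1%), so the members share both patterns with other genes. The experiment is not a term of this test. Experiment 3 holds H23 alone, and the study describes its control cells as given a nontargeting siRNA.

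The share of mitochondrial reads differed between the lines as well, at 11.0% to 24.4% mapped in H23, 3.04% to 6.63% in H1437 and 1.89% to 7.45% in PC9. The text of the study instead names H1437 as the line with the highest average share of mapped reads, while it reports the highest mitochondrial double-stranded RNA signal in H23. The lines are given here as the sample titles assign them, and the conflict could not be resolved. Per mapped read the H23 mean was above the mean of the other lines by 2.06, 2.07 and 1.44 on the log2 scale for ND1, ND2 and ND3. Per total read it was above by 3.96, 3.91 and 3.16. The lines did not overlap per mapped read for ND1 and ND2, but for ND3 H23 replicate 3 (0.183% of mapped reads) lay below PC9 replicate 2 (0.213%). The exact permutation P per mapped read was 0.0214 for ND1, 0.0286 for ND2 and 0.0679 for ND3, or 0.196, 0.196 and 0.264 adjusted over 35 genes. RNR2 itself did not separate the lines: its RPM spanned 9127 to 21330 in H23, 10940 to 13030 in H1437 and 5493 to 17310 in PC9.

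Relative to RNR2, the 3 genes were again higher in H23 on gene rows, whereas on CDS rows the lines overlapped for ND1. ND1 per base was 10.2%, 19.8% and 21.9% of RNR2 per base in H23 replicates 1, 2 and 3, against 0.763%, 2.26% and 0.813% in H1437 and 0.612%, 2.79% and 1.77% in PC9. The H23 mean was 17.3% ± 6.22 (SD, n = 3), 13.5-fold over H1437 and 10.0-fold over PC9. ND2 was 10.5%, 15.5% and 16.4% of RNR2 in H23, 0.624%, 1.92% and 0.864% in H1437, and 0.421%, 2.21% and 1.77% in PC9. No H23 value overlapped another line, and the folds of ND2 were 12.5 over H1437 and 9.65 over PC9. ND3 was 15.7%, 21.4% and 9.41% of RNR2 in H23, 1.92%, 2.11% and 0.919% in H1437, and 1.41%, 4.14% and 2.16% in PC9. Its folds were the lowest of the 3 genes, at 9.39 and 6.04.

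The exact permutation test of this ratio over the 3 lines gave P = 0.025 for ND1, 0.0286 for ND2 and 0.0143 for ND3. Adjusted over 34 genes the exact test gave 0.0773, 0.081 and 0.0773, and no gene was called (0.0%). All H23 libraries lay above the rest for 41.2% of the 34 genes, and unadjusted P was under 0.05 for 41.2%. The controls of experiments 2 and 3 extended the ranges. ND1 was 30.4% of RNR2 in the H23 control of IMT1, 27.7% in that of ADAR1 KD, 7.17% in the H1437 control and 0.220% in the PC9 control. For ND3 the H1437 control (9.43%) reached just above H23 replicate 3 (9.41%), so these lines overlapped once the controls were included.

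**Figure D2:**
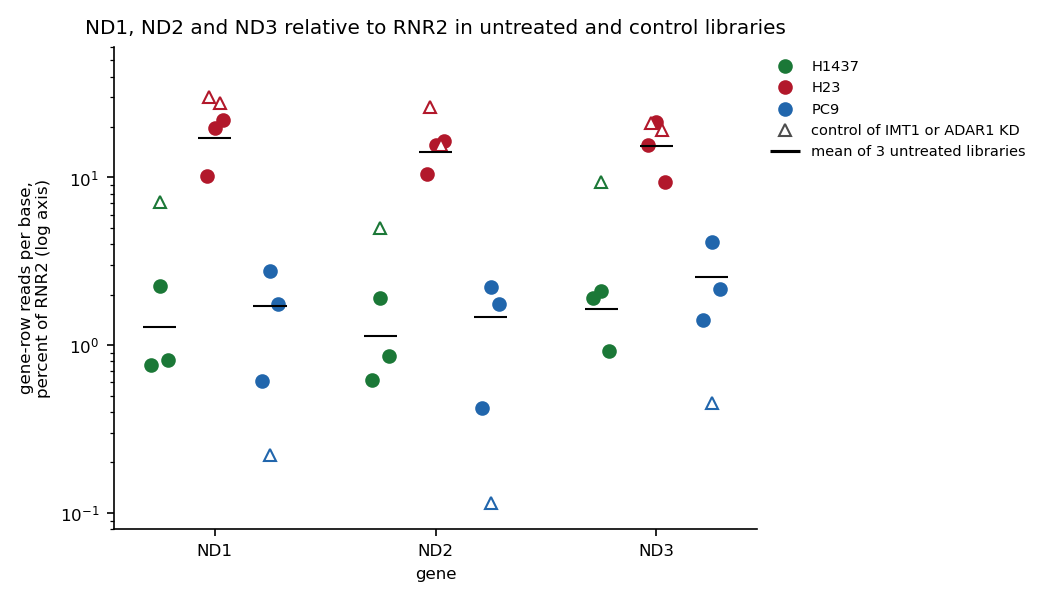
Gene-row reads per base of ND1, ND2 and ND3 as a percent of RNR2 per base, on a log axis, with untreated libraries as points, controls of IMT1 or ADAR1 KD as open triangles, and the mean of the 3 untreated libraries as a line. Each untreated H23 point lies above all untreated H1437 and PC9 points, the H1437 control of IMT1 overlaps H23 for ND3, and the PC9 control of IMT1 is the lowest point for each gene.

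The edgeR quasi-likelihood test, in which TMM sets the library sizes from the genes themselves, did not call the members. The log2 fold change of H23 against H1437 was 1.87 ± 0.95 for ND1, 1.80 ± 0.91 for ND2 and 0.78 ± 1.09 for ND3 (SE), with adjusted P of 0.548, 0.548 and 0.697. Against PC9 it was 1.49, 1.58 and 0.43, with an adjusted P of 0.873 for each. H1437 against PC9 gave -0.38, -0.22 and -0.34, and ND2 and ND3 took the opposite sign when certain single libraries were left out. No gene of 35 was called in the 3 comparisons (0.0% in each) and none had an unadjusted edgeR P under 0.05. DESeq2 called none and gave an unadjusted P under 0.05 to 1 gene in each comparison with H23, which was ND2 against H1437 and RNR2 against PC9. The median of all genes was 0.10 for H23 against H1437 and 0.29 against PC9, while RNR2 was at -2.24 and -2.38. With total reads as the library size the median became 1.98 and 2.49. Relative to it ND1, ND2 and ND3 lay higher by 2.24, 2.12 and 1.56 against H1437 and by 1.25, 1.25 and 0.37 against PC9.

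Without the tRNA genes the spread that edgeR estimated fell from a common dispersion of 1.7 to 0.187. For H23 against H1437 ND1 then passed with a log2 fold change of 1.25 (edgeR adjusted P = 0.0389) and ND2 with 1.21 (0.0475), among 6 of 14 genes called (42.9%). ND3 was at 0.79 with an adjusted P of 0.316. The median of these 14 genes was 0.63. The call of ND2 was lost when any 1 of the 9 libraries was left out, with adjusted P from 0.0687 to 0.33. The call of ND1 held in 2 of 9 cases, without H23 replicate 1 or without H23 replicate 2, over a range of 0.0369 to 0.18. On CDS and rRNA rows without tRNA rows both calls ended, with ND1 at 0.69 (edgeR adjusted P = 0.425) and ND2 at 0.87 (0.184). Against PC9 no gene was called by edgeR (0.0%), with 8 of 14 at an unadjusted P under 0.05, and none was called between H1437 and PC9 (0.0%), with 1 of 14 (ND4L, named after its value was seen).

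The 2 rows of one interval gave different counts. The CDS row of each gene held at least as many reads as its gene row in all 17 libraries. The study's stated gene-level setting counts a read for each gene it overlaps, under which the rows of one interval would hold equal counts. For ND1 the 17 libraries together had 31820 CDS-row reads and 6776 gene-row reads, so that 78.7% of the CDS-row reads were not on the gene row, the highest share of the 13 coding genes. ND2 had 12471 and 5792 (53.6% not on the gene row), and ND3 had 2956 and 2102 (28.9%). By library this share ran from 32.1% to 92.1% for ND1, from 11.2% to 73.5% for ND2 and from 0.0% to 42.9% for ND3.

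The reads missing from the gene rows matched, in number, reads missing from the gene rows of the neighboring tRNAs. For ND1 the CDS row exceeded the gene row by 25044 reads over the 17 libraries. The exon row of TRNL1, the upstream tRNA gene, exceeded its gene row by 18867 reads (75.3% of that difference), and TRNI on the downstream side by 5514 (22.0%). The 2 flanks together came to between 83.9% and 100% of the difference in each library. For ND2 the difference of 6679 reads lay almost wholly on the downstream side, with 6244 reads at TRNW (93.5%) and 200 at TRNM (2.99%). TRNW exceeded TRNM in all 17 libraries. For ND3 the counts could not be divided this way, because TRNG and TRNR also border COX3 and ND4L: their excesses of 6545 and 2043 reads were larger than the 854 reads of ND3.

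The side of ND1 on which these reads lay varied between replicates of a line. TRNL1 had the larger excess in 11 of 17 libraries and TRNI in 6. In replicate 2 of each line the TRNL1 excess was 79.3% (H1437), 86.5% (H23) and 69.9% (PC9) of the ND1 CDS-row reads. In replicate 1 it was 3.81%, 6.67% and 9.30%, and TRNI had 62.1%, 27.6% and 62.8%. Replicate 2 had the highest share of ND1 reads not on the gene row in each line, at 92.1%, 91.6% and 90.3%. For ND2 the TRNM side stayed at or below 6.51% in every library.

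**Figure D3:**
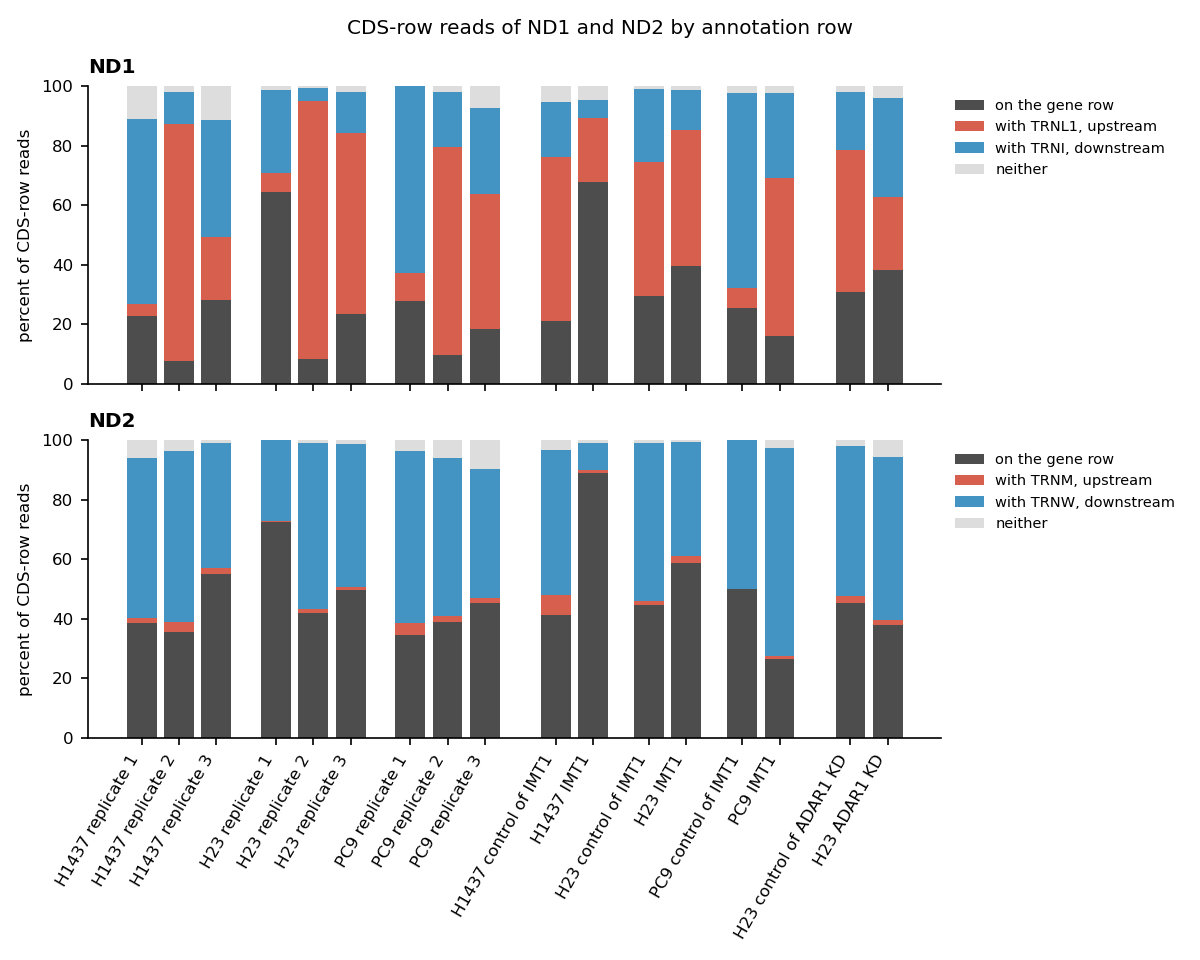
CDS-row reads of ND1 and ND2 in each library, divided into those also counted on the gene row, the excess of the exon row over the gene row at the upstream and downstream tRNA gene, and the remainder, in percent. TRNL1 takes from 3.81% to 86.5% of the ND1 reads, whereas ND2 has its excess at TRNW in every library.

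The choice of row changed the order of the genes. Per base, ND1 over ND2 ran from 0.786 to 2.13 on gene rows (median 1.26) and was above 1 in 12 of 17 libraries. On CDS rows it ran from 1.03 to 6.33 (median 2.45) and was above 1 in all 17. ND3 over ND2 per base had a median of 1.38 on gene rows and 0.835 on CDS rows. ND1 ranked first per base among the 13 coding genes on CDS rows in 5 libraries (H23 replicates 2 and 3, both H23 controls and PC9 replicate 2), and did not rank first in any library on gene rows.

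It also changed the comparison of the lines for ND1. ND1 CDS-row RPM were 1717, 13160 and 12200 in H23, 242, 1931 and 230 in H1437, and 85.8, 3059 and 324 in PC9. H23 replicate 1 lay below H1437 replicate 2 and PC9 replicate 2, so that the lines overlapped. For ND2 they were 1717, 2267 and 4695 in H23, and none of the other lines' values was above 659. For ND3 they were 630, 595 and 729 in H23, against at most 194 elsewhere. The exact permutation P over the lines was 0.10 for ND1, 0.0286 for ND2 and 0.0357 for ND3, and adjusted P over 37 rows was 0.176, 0.11 and 0.11. None of the 37 rows was called (0.0%), and 32.4% of them had every H23 library highest. Relative to the rRNA row of RNR2 per base, the lowest ND1 CDS-row value of H23 (14.0%) lay below the highest of H1437 (22.0%) and PC9 (21.8%). ND2 and ND3 did not overlap, as was so for 13 of 36 rows in all. The exact permutation P of this ratio was 0.107, 0.0321 and 0.0214 for ND1, ND2 and ND3, or 0.193, 0.117 and 0.117 adjusted over 36 rows.

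Across the 17 libraries the 3 genes followed one another closely in RPM. By Spearman correlation over 35 other genes, the nearest to ND1 were ND2 (0.98), CYTB (0.98) and ND5 (0.961). Nearest to ND2 were ND1 (0.98), ND3 (0.963) and CYTB (0.961), and nearest to ND3 were ND2 (0.963), ND1 (0.956) and CYTB (0.949). CYTB encodes the mitochondrial subunit of complex III, and ND5 an antiporter-like subunit of complex I. RNR2 ranked 24th, 27th and 24th, with correlations of 0.39, 0.392 and 0.355. The libraries share lines, treatments and the total-read denominator, so these values are descriptions.

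With IMT1 the members were lower than in the control in H1437 and H23 and higher in PC9. In H1437, ND1 was at 311 RPM in the control and 120 with IMT1. In H23 it was at 2764 and 635, and in PC9 at 34.1 and 82.1. The log2 ratios were -1.37 (95% exact interval -1.84 to -0.92), -2.12 (-2.29 to -1.96) and 1.27 (0.50 to 2.07). These intervals cover counting error only, as there was 1 library per line and treatment.

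ND2 was at 235 RPM in the control and 167 with IMT1 in H1437, at 2596 and 869 in H23, and at 19.3 and 58.7 in PC9. Its log2 ratios were -0.50 (-0.93 to -0.06), -1.58 (-1.73 to -1.43) and 1.61 (0.63 to 2.67). ND3 was at 148 and 97.0 RPM in H1437, at 696 and 209 in H23, and at 25.2 and 64.5 in PC9. Its log2 ratios were -0.61 (-1.18 to -0.05), -1.73 (-2.04 to -1.44) and 1.36 (0.47 to 2.30). In H23 the IMT1 library lay below all 5 untreated and control libraries of the line for each of the 3 genes. In H1437 and PC9 it lay within the range of the 4 untreated and control libraries for each gene. The PC9 changes rested on few reads, at 23 and 42 for ND1, 13 and 30 for ND2, and 17 and 33 for ND3 in control and IMT1.

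Over the 3 lines the mean log2 ratio was -0.74 ± 1.78 for ND1, -0.16 ± 1.62 for ND2 and -0.33 ± 1.56 for ND3 (SD, n = 3). The exact sign-flip permutation P was 0.50, 1.0 and 0.75, where 3 pairs cannot give less than 0.25. Of 33 genes with a count in each library, 39.4% were likewise lower in H1437 and H23 and higher in PC9, among them the 3 members. RNR2 was lower in all 3 lines, at log2 ratios of -1.97, -1.62 and -2.25 in H1437, H23 and PC9. Relative to RNR2, ND1 was at 7.17% in the control and 10.9% with IMT1 in H1437, at 30.4% and 21.4% in H23, and at 0.220% and 2.53% in PC9. ND2 relative to RNR2 with IMT1 was 2.78-fold, 1.03-fold and 14.5-fold its control value in H1437, H23 and PC9. For ND3 the folds were 2.57, 0.924 and 12.2.

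The edgeR test with the cell line as a block gave log2 fold changes of -0.42 ± 1.02 for ND1, 0.17 ± 1.02 for ND2 and 0.00 ± 1.09 for ND3 (SE), with adjusted P of 0.972, 0.985 and 0.998. It called 0 of 33 genes (0.0%), with 2 at an unadjusted P under 0.05 (RNR1 and TRNS2). DESeq2 called 1 gene, TRNS2, a serine tRNA gene that is named because its value was seen. Per mapped read the mean log2 ratio turned positive, at 0.80, 1.39 and 1.21, and the mapped share of control and IMT1 was 5.30% and 1.14% in H1437, 30.5% and 9.83% in H23, and 6.73% and 3.94% in PC9. Without the tRNA genes edgeR also called none of 14 (0.0%), with 1 at an unadjusted P under 0.05 (ND4L again).

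The share of CDS-row reads not on the gene row differed between control and IMT1 as well, for ND1 and ND2 in the same direction as their levels. For ND1 it was 78.8% in the H1437 control (95% exact interval 75.5 to 81.8) and 32.1% with IMT1 (22.4 to 43.2). In H23 it was 70.5% (69.2 to 71.7) and 60.5% (57.3 to 63.6). In PC9 it was 74.4% (64.2 to 83.1) and 83.8% (78.7 to 88.1), with overlapping intervals. For ND2 it was 58.6% and 11.2% in H1437, 55.4% and 41.3% in H23, and 50.0% and 73.5% in PC9. The PC9 intervals of ND2 overlapped too, at 29.9 to 70.1 in the control and 64.3 to 81.3 with IMT1. For ND3 it was 35.2% and 20.7%, 32.6% and 32.3%, and 10.5% and 5.71%, and the intervals of control and IMT1 overlapped in each line. On CDS rows the log2 ratios of ND1 were thus -3.05, -2.54 and 1.93 in H1437, H23 and PC9. Those of ND2 were -1.60, -1.97 and 2.52, further from 0 in each line than on gene rows. For ND3 they were -0.90, -1.74 and 1.28.

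With ADAR1 KD all 3 genes were lower than in the control library, with no replicate check. ND1 had 1380 gene-row reads in the control (6240 RPM) and 39 in ADAR1 KD (1051 RPM), a log2 ratio of -2.57 (95% exact interval -3.07 to -2.11). ND2 had 848 and 20 reads, or 3834 and 539 RPM, a log2 ratio of -2.83 (-3.55 to -2.20). ND3 had 345 and 4 reads, or 1560 and 108 RPM, a log2 ratio of -3.86 (-5.74 to -2.49). These were 5.94-fold, 7.12-fold and 14.5-fold lower values. The intervals of the 3 genes overlap, so their order was not resolved at this depth.

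Of the 28 genes with at least 10 control counts, 71.4% were lower by over 2-fold, and the median log2 ratio of all 28 was -2.35. The 10 other coding genes had a median of -2.69. RNR2 was at -1.11 and RNR1, the gene of the small mitochondrial rRNA, at -1.70. Relative to RNR2, ND1 was at 27.7% in the control and 10.1% in ADAR1 KD, ND2 at 15.6% and 4.74%, and ND3 at 19.1% and 2.85%. The log2 ratios were -1.46 (-1.96 to -1.0), -1.72 (-2.44 to -1.09) and -2.75 (-4.63 to -1.38). For 55.6% of 27 genes the ratio to RNR2 was lower by over 2-fold in ADAR1 KD than in the control. In both of these shares of genes, a count under 3 was set to 3. The mapped share was 47.2% in the control and 11.0% in ADAR1 KD, and per mapped read the log2 ratios of the members were -0.47, -0.74 and -1.76. Against the untreated and IMT1-control libraries of H23, in which ND1 ran from 1104 to 2860 RPM, the ND1 value of 1051 was the lowest, but the lowest of those libraries lay within its exact interval, which began at 747. ND2 at 539 (exact interval 329 to 832) and ND3 at 108 (29.4 to 276) lay below the lowest of these libraries, 947 and 434.

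**Figure D4:**
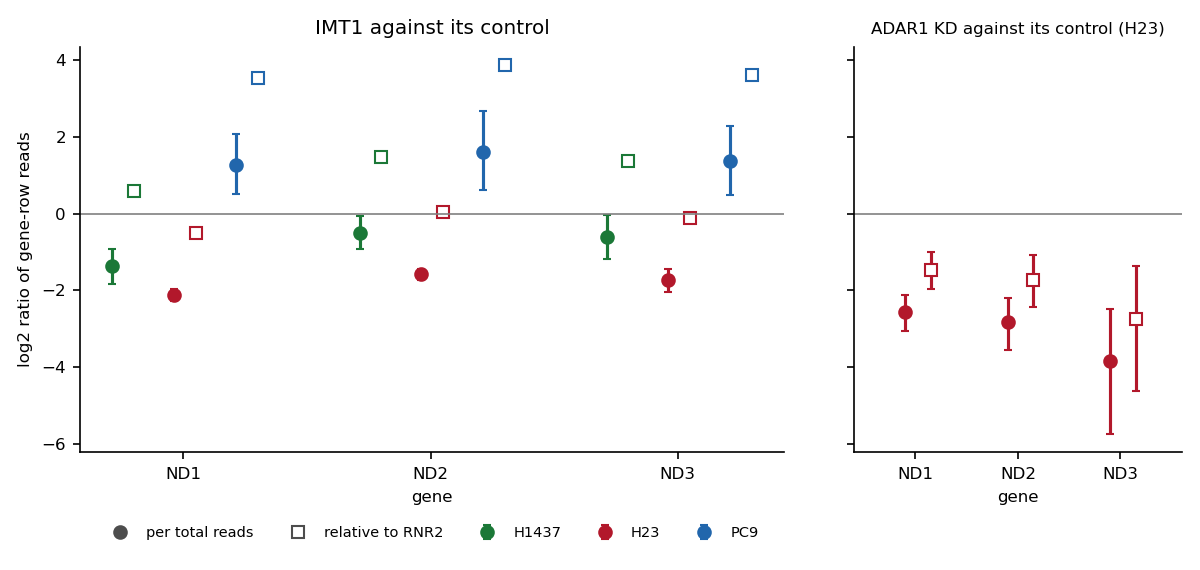
The log2 ratio of gene-row reads in IMT1 over its control for each line (left) and in ADAR1 KD over its control in H23 (right), per total reads (filled circles) and relative to RNR2 per base (open squares). Bars are 95% exact intervals that cover counting error only, shown for all circles and for the ADAR1 KD squares. Per total reads the H1437 and H23 circles lie below 0 and the PC9 circles above it for each gene, and all ADAR1 KD values lie below 0.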

How the data were processed

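With minimap2 2.17-r941 the authors aligned the nanopore reads against mitochondrial sequence only, so reads of nuclear mitochondrial copies could not be separated. They deposited raw counts of reads per annotated feature from featureCounts (long-read mode, minimum overlap of 6 bases, no multi-mapping reads) for 99 features, and the counts and percent of mapped reads made with SAMtools 1.10. The strand setting is not given, so reads of the 2 strands cannot be told apart.

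Gene rows were the main values and CDS rows the alternative. RPM (reads per 1000000 total reads), per-base ratios to RNR2 and exact Poisson, binomial and conditional 95% intervals were computed in Python 3.11.15 (pandas 2.3.3, scipy 1.17.1). Intervals cover counting error only. PCR copies were not told apart by identifiers, so the intervals can be too narrow even for that error. The lines were tested by exact permutation (two-sided) and by edgeR 4.0.16 (quasi-likelihood, TMM, Benjamini-Hochberg) in R 4.3.3, keeping genes that reached 10 counts in 3 libraries. DESeq2 1.42.0 served as another tool. The edgeR fit and the permutation tests were tested on simulated data. For edgeR a minimum rate of detected changes was required only at a dispersion far below the 1.7 of the real fit. How often edgeR detects a change at 1.7 is not given here. The exact P-values were adjusted over all genes tested, in place of the planned family of the 3 genes. The study describes the 3 libraries of a line as independent experiments. Chi-square tests of gene counts separated every pair of replicates, and none were merged.

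Same-numbered deviations from the line means correlated at 0.956, 0.877 and 0.941 between H1437 and PC9, so these libraries were taken as paired. The permutation tests and the main edgeR fit of the lines did not use this pairing, which entered only the fits with a replicate block. With H23 the same-numbered correlations ran from -0.779 to 0.331. Different-numbered ones with H23 ran from -0.814 to 0.867, so these correlations did not settle whether H23 is paired by number. The TRNL1 share of the ND1 CDS-row reads was lowest in replicate 1 and highest in replicate 2 in each line, H23 included.

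The members, gene lists and tests were chosen with earlier results of these data known. The genes named are the 3 members, RNR1, RNR2, the flanking tRNA genes and, for each member, the 3 other genes of highest Spearman correlation. COX3 and ND4L, beside ND3, were named for their position after values were seen. ND4, ND4L, ND5 and ND6, and CYTB, COX1, COX2, COX3, ATP6 and ATP8, were otherwise described only as lists. The closing section gives the alternatives. The fits of H1437 and PC9 alone, the tRNA-free fits with 1 library left out or on CDS rows, those without replicate 1, and the RNR2 ratio over 13 libraries were added after seeing the data.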

Additional observations from a re-analysis of the deposited data

Results flagged for a closer look

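Within the untreated and control libraries of each line (4 of H1437, 5 of H23, 4 of PC9), 27 sets of values of the 3 genes were examined for a library far from the others, and 5 were found. The rule is set to flag about 5% of independent sets. These sets share libraries and genes that follow one another closely, so their number cannot be read against that rate. PC9 replicate 2 stood above the other PC9 libraries for ND1, at 296 reads per 1000000 total reads against 23.9 to 59.5, and for ND3, at 159 against 20.0 to 26.3. The H23 control of ADAR1 KD stood above the other H23 libraries for ND3, at 1560 against 434 to 696. The H1437 control of IMT1 stood above the other H1437 libraries for ND3 relative to RNR2, at 9.43% against 0.919% to 2.11%. H23 replicate 1 stood below the other H23 libraries in the share of ND2 CDS-row reads not on the gene row, at 27.6% against 50.2% to 58.2%.

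The log2 ratio of IMT1 to control had the opposite sign in PC9 for all 3 genes, at 1.27 for ND1, 1.61 for ND2 and 1.36 for ND3, where H1437 and H23 were negative. With 1 library per line and treatment this difference between the lines was not tested.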

How the results depend on the processing

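Of 193 alternative values of the main results, 171 kept their direction and side of the threshold. Some of them could not change sides. The sign-flip permutation P of the IMT1 ratios cannot fall below 0.25, and the ADAR1 KD ratios have no test. Over the 13 untreated and control libraries, the log2 excess of H23 over the other lines was 4.50, 4.35 and 3.57 per total read for ND1, ND2 and ND3. Relative to RNR2 it was 3.42, 3.39 and 2.62. The adjusted P fell below the threshold. The added libraries were assigned to other experiments from their alignment names, and experiment 3 adds H23 alone, so their number and their experiment cannot be told apart. With 1 library left out in turn, the excess per total read ranged from 3.35 to 4.67 for ND1, from 3.44 to 4.54 for ND2 and from 2.88 to 3.92 for ND3, with adjusted P from 0.0694 to 0.167. Without the tRNA genes edgeR called 2 of the 3 members in H23 against H1437. The number called with single libraries left out was 0.0 to 1.0. The cause was not tested. With the replicate number as a replicate block, no member was called, and ND1, ND2 and ND3 were at 1.92, 1.80 and 1.13 in H23 against H1437. In the paired fit of H1437 and PC9 alone, 10 of 33 genes were called, none of them a member, against 0 of 33 in the same libraries without the block.

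Some log2 fold changes took the opposite sign, and the cause was not tested. H1437 against PC9 became 0.43, 0.53 and 0.82 for ND1, ND2 and ND3 on CDS, rRNA and tRNA rows, and 0.01 for ND2 without a filter. With single libraries left out, with or without the tRNA genes, ND2 ranged from -0.58 to 0.14 and ND3 from -1.61 to 0.19 in this comparison. For ND3 the range was -0.10 to 2.05 in H23 against H1437 and -0.27 to 1.57 in H23 against PC9. For IMT1, edgeR gave -0.23 for ND2 and -0.38 for ND3 with total reads as library size, and -0.14 and -0.04 with no cell line block. The mean log2 ratio of IMT1 to control became 0.80, 1.39 and 1.21 per mapped read. With 1 line left out it ranged from -1.04 to 0.56 for ND2 and from -1.17 to 0.38 for ND3.

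The log2 ratio with ADAR1 KD was -0.47, -0.74 and -1.76 for ND1, ND2 and ND3 per mapped read. Relative to RNR2 it was -1.46 for ND1 and -1.72 for ND2. Against the mean of all untreated and control H23 libraries it was -1.42 for ND1 and -2.02 for ND2. Depth limited ND3 most, with 4 reads in ADAR1 KD, and the PC9 pair of IMT1, with 13 to 42 reads per gene.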
